A study of Drosophila melanogaster with 7 samples.

Results

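The constitutive chaperones and Hsp90 cochaperones described here are 10 fly genes, found by their current symbols in the platform annotation: the Hsp70-family genes Hsc70-1, Hsc70-2, Hsc70-3, Hsc70-4 and Hsc70-5, their relative Hsp110, the chaperonin Hsp60A, the J-domain protein gene Droj2, and the Hsp90 cochaperone genes Stip1 and Cdc37. They were read by 12 of the 13647 probe sets that carried 1 gene symbol, which stood for 11982 genes. Hsc70-1 had 3 probe sets, the other genes had 1 each, and 0 of the 12 were annotated to a second gene. The measurements came from 7 Affymetrix arrays, 1 per sample, of total RNA from salivary glands of Drosophila melanogaster taken early in metamorphosis. Animals were kept at 25 °C, given a heat shock of 30 min at 37 °C, and their glands were taken 14 h after puparium formation (APF).

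Line X1 (P{hs-GAL4}X1, 2 copies) had 3 arrays and was heat shocked at 9 h APF. Line 89 (P{GAL4-Hsp70.PB}89-2-1) was represented by a 2-copy sample and a 1-copy sample, with 1 array each and the heat shock also at 9 h. The control strain w1118, with no GAL4 transgene named in its labels, had 2 arrays and was heat shocked at 9.5 h. Both GAL4 lines express the yeast activator GAL4 from a heat-shock promoter, so every group, w1118 included, had the heat shock itself. The series text calls the 3 X1 and the 2 w1118 arrays biological replicates, and how many animals went into each was not given in the sources used here. Each transgene line is 1 strain, so GAL4, the strain and the shift of the heat shock time cannot be told apart in a comparison with w1118. X1 and line 89 shared the heat shock time. The question was which transcripts differ in glands that express GAL4.

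Hsp70 proteins bind unfolded stretches of other proteins in a cycle of ATP binding and hydrolysis, in which J-domain proteins deliver the client and trigger hydrolysis, and nucleotide exchange factors such as Hsp110 reset the chaperone. Clients can pass from Hsp70 to Hsp90, which matures kinases, hormone receptors and other regulatory proteins with the help of cochaperones. The heat shock cognate (Hsc) genes encode forms that cells make without stress, in contrast to the heat-induced Hsp70 genes. The larval salivary gland is a secretory tissue that is removed by programmed cell death early in metamorphosis.

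The expression values were intensities computed by the authors in dChip, on a linear scale, and values of different probe sets are not compared with each other here. For the tests, values under 16 were raised to 16 and taken to log2, and a probe set was called at a limma p-value under 0.05 after Benjamini-Hochberg adjustment over all 18769 fly probe sets. Differences are log2 of the first-named group minus the second, with the standard error (SE) from limma. Array medians were 33.7 to 38.0 in X1, 44.9 (2 copies) and 40.8 (1 copy) in line 89, and 42.2 and 42.5 in w1118, and 23.4 to 30.0% of probe sets were under 16 in X1, against 18.8 and 21.9% in line 89 and 18.9 and 20.3% in w1118. Over all probe sets the arrays correlated at 0.957 to 0.985 within X1, 0.935 between both line 89 arrays and 0.978 within w1118. The 3′ to 5′ ratio of dap, a bacterial transcript commonly added to RNA as a labelling control, was 16.1 to 22.4 in X1, 3.71 and 3.59 in line 89 and 2.12 and 2.91 in w1118. The same ratio for the fly actin gene Act5C was 1.72 to 2.02 in X1, 2.13 and 1.45 in line 89 and 1.60 and 1.62 in w1118. The part of these array differences in the results below was not tested.

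Summed over 18 measured genes, salivary gland markers were strong on every array. The sum was 72289 to 73346 in X1, 65718 in the 2-copy and 54813 in the 1-copy array of line 89, and 64421 and 67740 in w1118. Most of it came from Eig71Ea, Eig71Ed, Eig71Eg, Eig71Eh and Eig71Ei, while ng2 and ng3 were dim. In X1 against w1118 limma called 3 genes higher (Eig71Eg, Sgs3 and Eig71Eh) and 2 lower (Sgs7 and sage). Uncalled, Sgs1, Sgs5, Sgs8 and Eig71Ee were lower in every X1 array than in w1118. Eig71Ea, Eig71Ed, Eig71Ei, ng1, ng3, ng4 and fkh were higher in every X1 array. For 9 fat body genes the sums were 12413 to 19005 in X1, 21033 and 14543 in line 89, and 14161 and 15462 in w1118, with 1 gene called higher and 2 lower. The lipid droplet gene Lsd-1 rose (3.803 on the log2 scale, limma adjusted p = 0.0135; not called without either w1118 array or X1 replicate 2) and the fat body protein gene Fbp2 fell (-5.505, limma adjusted p = 0.00595). Without Lsd-1 the fat body sums were 8166 to 10617 in X1, 13304 and 13925 in line 89, and 13842 and 14952 in w1118, so X1 lay below both w1118 arrays. For 9 hemocyte genes they were 2905 to 4102 in X1, 4667 and 3706 in line 89, and 2406 and 2495 in w1118, with 0 called higher and 2 lower. Without crq, a scavenger receptor gene that was itself not called (limma adjusted p = 0.0841), they were 829 to 1069 in X1, 1855 and 792 in line 89, and 918 and 998 in w1118, so that X1 spanned w1118. For 10 muscle genes they were 13214 to 13899 in X1, 13832 and 13621 in line 89, and 929 and 938 in w1118, with 2 called higher and 3 lower. The muscle gap was almost all TpnC73F, a troponin C gene. On any array at most 1 gland gene, 1 fat body gene, 3 hemocyte genes and 4 muscle genes were under 16. Without TpnC73F the muscle sums were 574 to 975 in X1, 1453 and 1232 in line 89, and 769 and 769 in w1118. Their part in the chaperone differences was not tested, and in bulk RNA fewer cells of a type and less RNA per cell cannot be told apart.

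In X1 glands 4 of the 10 genes rose relative to w1118: the cytosolic Hsc70-4, the J-domain gene Droj2, and both Hsp90 cochaperone genes, Stip1 and Cdc37. Stip1 rose most among these 4, 4.28-fold, and the others by 1.91-fold to 2.29-fold. Of the 12 probe sets, 4 were called higher (33.3%), where 7.50% of all 18769 probe sets were called higher, and 17.8% of the 6631 with a mean of at least 100 in X1 or w1118. One dim Hsc70-1 probe set was called lower, against 10.6% of all probe sets, and the other 7 were not called. The median difference over the 12 was 0.40, against -0.09 over all probe sets. How all probe sets split between higher and lower depended on scaling: 1407 and 1997 were called as reported, 1779 and 1429 with median centring, and 1964 and 612 with scaling to the hybridization controls.

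**Figure D1:**
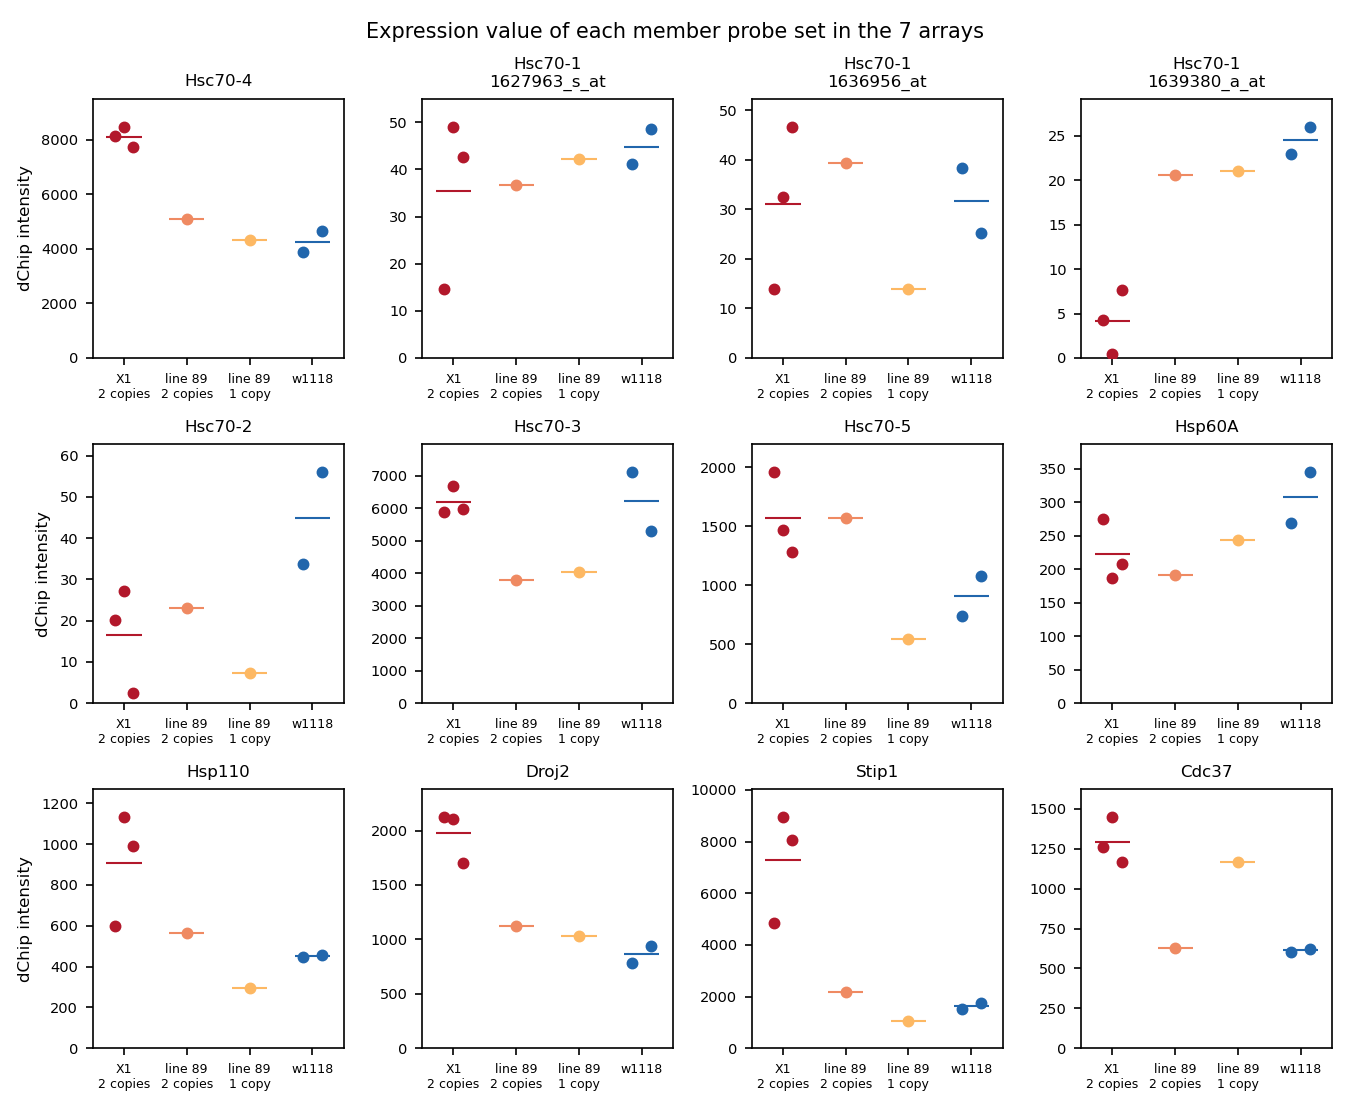
Deposited dChip intensity (linear scale, each panel with its own axis from 0) of the 12 probe sets of the 10 genes, with 1 point per array and a bar at the group mean, for X1 (3 arrays), line 89 with 2 copies and with 1 copy (1 array each) and w1118 (2 arrays). For Hsc70-4, Droj2 and Stip1 the X1 points lie above every line 89 and w1118 point, and for Cdc37 the line 89 array with 1 copy lies among the X1 arrays.

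Hsc70-4 encodes the main constitutive Hsp70 of the fly cytosol, which also strips clathrin from vesicles. Its intensity was 8139.8, 8475 and 7718 in X1 replicates 1, 2 and 3, 5078 in line 89 with 2 copies, 4319 in line 89 with 1 copy, and 3866 and 4657 in w1118. All 3 X1 arrays lay above the other 4, and the line 89 array with 1 copy lay between both w1118 arrays. X1 averaged 8111 ± 379 (SD, n = 3) and w1118 averaged 4261 ± 559 (SD, n = 2). Hsc70-4 rose 1.91-fold in X1, a log2 difference of 0.93 ± 0.107 (SE; limma adjusted p = 0.0153). Leaving out X1 replicate 2 (0.90, limma adjusted p = 0.0701) or X1 replicate 3 (0.97, limma adjusted p = 0.0605) ended the call. Quantile normalization ended it as well, with a difference of 0.52, while scaling to the hybridization controls gave 1.54.

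Droj2 encodes a J-domain partner of cytosolic Hsp70. It measured 2124, 2109 and 1705 in X1, 1119.8 and 1028 in the 2-copy and 1-copy arrays of line 89, and 786 and 941 in w1118. Again no X1 array overlapped another group, and both line 89 arrays sat a little above both w1118 arrays. The X1 mean of 1979 ± 238 (SD, n = 3) stood against 864 ± 110 (SD, n = 2) in w1118. This was a 2.29-fold rise, with a log2 difference of 1.19 ± 0.153 (SE; limma adjusted p = 0.0193). The call ended without w1118 replicate 1 (1.06, limma adjusted p = 0.0995), w1118 replicate 2 (1.32, limma adjusted p = 0.0686) or X1 replicate 2 (1.15, limma adjusted p = 0.0804), and with a floor of 64.

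Hsp110, the nucleotide exchange factor for Hsp70, was less even. Its intensity was 598, 1133 and 993 in X1, 567 and 297 in the 2-copy and 1-copy arrays of line 89, and 446 and 456 in w1118. X1 replicate 1 lay close to the line 89 array with 2 copies, and the other X1 arrays were well above it. The groups X1 and w1118 did not overlap, with means of 908 ± 278 (SD, n = 3) and 451 ± 6.95 (SD, n = 2). The log2 difference of 0.96 ± 0.328 (SE) had a limma p of 0.0471 before adjustment and did not pass after it (adjusted p = 0.145). Without X1 replicate 1 it was 1.23 and passed (limma adjusted p = 0.0162), and it also passed with scaling to the hybridization controls (1.56, limma adjusted p = 0.048).

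Stip1, the fly Hop, is an adaptor with TPR repeats that holds Hsp70 and Hsp90 together while a client is handed over. The 3 X1 arrays gave 4856, 8950.1 and 8076, the line 89 arrays 2179 with 2 copies and 1055 with 1 copy, and the w1118 arrays 1538 and 1762. Every X1 array exceeded every other array, and line 89 stood on both sides of w1118. X1 averaged 7294 ± 2156 (SD, n = 3) and w1118 averaged 1650.0 ± 158 (SD, n = 2). The log2 difference was 2.10 ± 0.325 (SE; limma adjusted p = 0.0288). Leaving out any of 4 arrays ended the call, with 2.00 without w1118 replicate 1 (limma adjusted p = 0.160), 2.20 without w1118 replicate 2 (0.136), 1.93 without X1 replicate 2 (0.0884) and 2.00 without X1 replicate 3 (0.102). The direction held in every alternative, from 1.21 to 2.71.

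Cdc37 brings protein kinases to Hsp90. It read 1258, 1448 and 1166 in X1, 628 in line 89 with 2 copies, 1168 in line 89 with 1 copy, and 603 and 625 in w1118. Unlike the genes above, its line 89 array with 1 copy was as high as the lowest X1 array, while the array with 2 copies was at the level of w1118. The means were 1291 ± 144 (SD, n = 3) in X1 and 614 ± 15.1 (SD, n = 2) in w1118, which differed 2.09-fold. On the log2 scale this was 1.07 ± 0.113 (SE; limma adjusted p = 0.0130). Without w1118 replicate 1 (1.04, limma adjusted p = 0.0841) or w1118 replicate 2 (1.09, limma adjusted p = 0.0759) the call ended, as it did with a floor of 1 and in the fit of all 7 arrays.

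The chaperones of the endoplasmic reticulum (ER) and the mitochondrion did not pass the test. Hsc70-3 is BiP, the Hsp70 of the ER lumen, a compartment on which a secretory gland relies. Its intensity was 5884, 6688 and 5969 in X1, 3801 and 4029 in the 2-copy and 1-copy arrays of line 89, and 7113 and 5290.2 in w1118. X1 lay inside the range of w1118, and both line 89 arrays lay below every other array. X1 and w1118 averaged 6180.1 ± 441 (SD, n = 3) and 6202 ± 1289 (SD, n = 2), a log2 difference of 0.01 ± 0.162 (SE; limma adjusted p = 1.000).

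Hsc70-5 is the mitochondrial Hsp70, which pulls imported proteins into the matrix. It measured 1960.4, 1470.1 and 1284 in X1, 1569 and 542 in the 2-copy and 1-copy arrays of line 89, and 740.3 and 1082 in w1118. All X1 arrays exceeded both w1118 arrays, but the line 89 array with 2 copies was inside the X1 range and the array with 1 copy was the lowest of the 7. The difference of 0.79 ± 0.280 (SE) did not pass (limma adjusted p = 0.155). Hsp60A, the chaperonin of the mitochondrial matrix, gave 274, 187 and 207 in X1, 192 and 243 in line 89, and 269 and 345 in w1118. X1 replicate 1 overlapped w1118, and the difference of -0.47 ± 0.228 (SE) did not pass (limma adjusted p = 0.265).

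Hsc70-1 and Hsc70-2, the remaining Hsp70-family cognates, were dim on all arrays. Hsc70-2 read 20.2, 27.2 and 2.41 in X1, 23.02 and 7.38 in the 2-copy and 1-copy arrays of line 89, and 33.8 and 56.1 in w1118. Every GAL4 array was below both w1118 arrays, with a log2 difference of -1.08 ± 0.356 (SE) in X1 that did not pass (limma adjusted p = 0.136).

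The Hsc70-1 probe set 1627963_s_at gave 14.6, 49.1 and 42.6 in X1, 36.6 and 42.3 in line 89, and 41.1 and 48.5 in w1118. Probe set 1636956_at gave 14.0, 32.5 and 46.7 in X1, 39.3 and 13.9 in line 89, and 38.3 and 25.3 in w1118. For both, X1 spanned the w1118 values (limma adjusted p = 0.644 and 0.965). Probe set 1639380_a_at gave 4.31, 0.392 and 7.68 in X1, 20.7 and 21.1 in line 89, and 22.98 and 26.0 in w1118. Its X1 arrays were all under the floor of 16, so it was at least 1.53-fold lower in X1 (limma adjusted p = 0.0156). The X1 values all entered this test as 16, so the p-value holds no spread between the X1 arrays. With a floor of 1 the difference was -2.93 ± 0.875 (SE; limma adjusted p = 0.0872). The call ended without X1 replicate 2 (limma adjusted p = 0.0716) or X1 replicate 3 (limma adjusted p = 0.0689), at both other floors and with scaling to the hybridization controls. The 3 probe sets of Hsc70-1 did not give the same call.

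**Figure D2:**
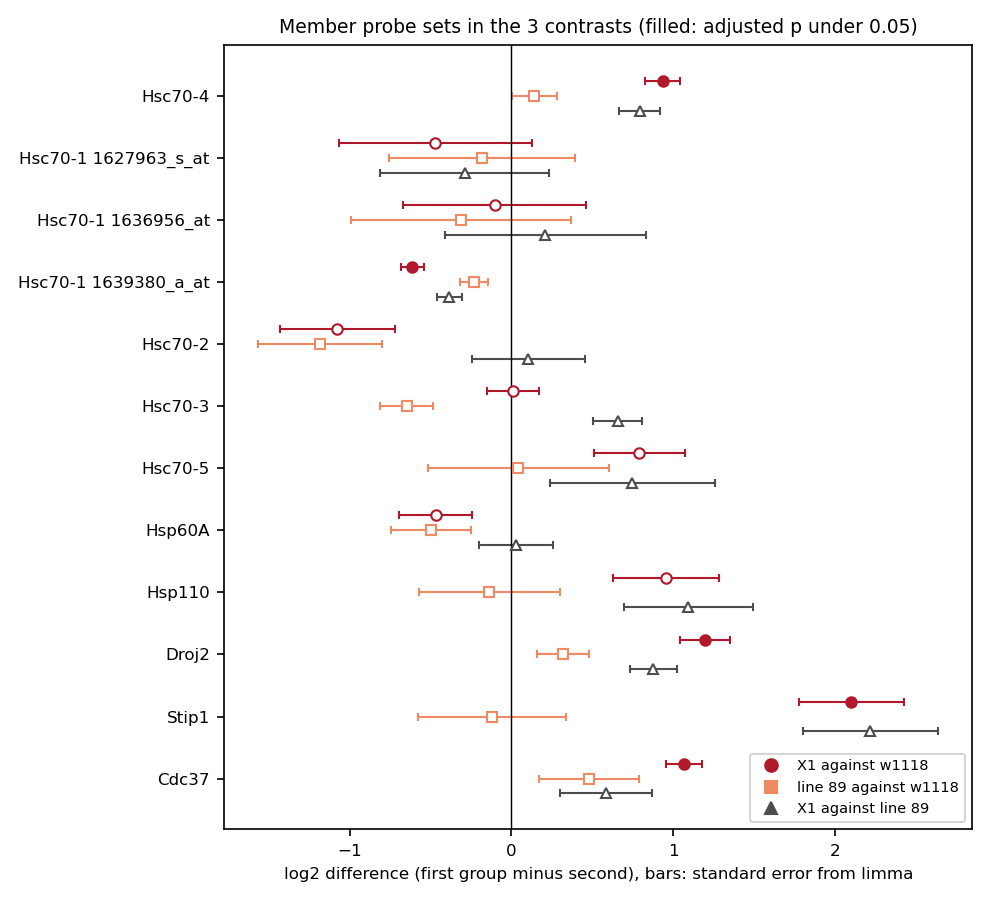
Log2 difference of the 12 probe sets (first group minus second) in X1 against w1118, line 89 against w1118 and X1 against line 89, with bars for the standard error from limma and filled symbols for an adjusted p under 0.05. Filled symbols occur only in X1 against w1118, to the right of 0 for Hsc70-4, Droj2, Stip1 and Cdc37 and to the left for one Hsc70-1 probe set.

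The line 89 arrays, taken as 1 group of 2, showed none of these differences at the threshold. In line 89 against w1118 limma called 0 of the 12 probe sets in either direction. Of the 12, 3 had an unadjusted p under 0.05, as did 3356 of all 18769. Of all probe sets 4.38% were called in this comparison, 2.73% higher and 1.65% lower. In counts this was 513 and 309, against 1439 and 96 with scaling to the hybridization controls. Hsc70-4 differed by 0.14 (limma adjusted p = 0.689), Droj2 by 0.32 (0.418), Cdc37 by 0.48 (0.563) and Stip1 by -0.12 (0.984). The ER chaperone Hsc70-3 was 0.65 ± 0.166 (SE) lower on the log2 scale in line 89 by value, at a limma adjusted p of 0.126. It was called lower only with quantile normalization, at -0.87. Both comparisons share the w1118 arrays.

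The difference between the lines was tested directly, within arrays that had the same heat shock time. In X1 against line 89 6 of the 12 probe sets had an unadjusted limma p under 0.05, as did 3618 of all 18769. After adjustment limma called 0 of the 12, and 1.98% of all probe sets, 0.730% higher and 1.25% lower. In counts this was 137 and 234, against 231 and 133 with median centring. Stip1 was 4.65-fold higher in X1 by value, with a log2 difference of 2.22 ± 0.418 (SE; limma adjusted p = 0.0801). For Droj2 the difference was 0.88 ± 0.146 (limma adjusted p = 0.0657), for Hsc70-4 0.79 ± 0.125 (0.0600) and for Hsc70-3 0.66 ± 0.152 (0.112). Hsp110 differed by 1.09 ± 0.396 (limma adjusted p = 0.237), Hsc70-5 by 0.75 ± 0.510 (0.498) and Cdc37 by 0.59 ± 0.283 (0.355). The median over the 12 probe sets was 0.62, against -0.11 over all probe sets. Other settings brought 1 gene each past the threshold: Hsc70-4 with median centring (1.03), Stip1 with dim probe sets left out (2.22) and Cdc37 without the line 89 array with 1 copy (1.03).

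Counting arrays without a model, 8 of the 12 probe sets had no overlap between X1 and w1118, where 48.3% of all probe sets had none. The 8 were those of Hsc70-4, Droj2, Hsp110, Stip1, Cdc37, Hsc70-5 and Hsc70-2 and the Hsc70-1 probe set 1639380_a_at. Line 89 and w1118 did not overlap for 6 (40.3% of all probe sets), and X1 and line 89 for 6 (30.8%).

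Within line 89, the arrays with 2 copies and 1 copy had no replicates, so their ratios carry no test. Hsc70-5 was 2.90-fold, Stip1 2.07-fold and Hsp110 1.91-fold higher with 2 copies, and so was the dim Hsc70-1 probe set 1636956_at, by 2.46-fold on floored values. Cdc37 ran the other way, at 0.538 of its level with 1 copy. The ratio was 1.18 for Hsc70-4, 1.09 for Droj2, 0.943 for Hsc70-3 and 0.788 for Hsp60A. Of all probe sets, 10.7% were at least 2-fold higher and 7.75% at least 2-fold lower with 2 copies.

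Other genes of the folding machinery were read from lists of the Hsp90 system, the cytosolic chaperonin and prefoldins, the Hsp70 system and the ER, each gene with its brightest probe set. The chaperonin list held the most calls. TRiC, the cytosolic chaperonin that folds actin and tubulin, is built from the 8 CCT subunits, and all 8 genes were measured. In X1 against w1118 7.50% of all probe sets were called higher, and 17.8% of those with a mean of at least 100 in X1 or w1118. The share of all probe sets was 4.11% without X1 replicate 2, 3.93% without X1 replicate 3 and 3.32% with the 5 GAL4 arrays as 1 group. Of the 8 CCT genes 6 rose, 0 fell, and CCT2 and CCT6 did not pass. The count was 2 without w1118 replicate 1, 3 without w1118 replicate 2 or X1 replicate 3, 5 without X1 replicate 2, and 0 with the 5 GAL4 arrays as 1 group.

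CCT3 measured 3207, 2852 and 2635 in X1, 1523 and 1053 in the 2-copy and 1-copy arrays of line 89, and 734 and 792 in w1118, a log2 difference of 1.92 ± 0.109 (SE; limma adjusted p = 0.00355). CCT1 measured 1279.8, 1638 and 1435 in X1, 357 and 432 in line 89, and 426 and 481 in w1118, a difference of 1.67 ± 0.138 (limma adjusted p = 0.00751). CCT4 measured 1935, 2099 and 2209 in X1, 870.0 and 847 in line 89, and 1041 and 1029.9 in w1118, a difference of 1.00 ± 0.0744 (limma adjusted p = 0.00601). For these subunits, as for Stip1, every X1 array exceeded every other array.

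In line 89 against w1118 0 of the 8 CCT genes were called. In X1 against line 89 4 of the 8 were called higher, against 0.730% of all probe sets, and these calls are among those that ended when X1 replicate 2 or X1 replicate 3 was left out, where limma called 0 of all 18769 probe sets. The count was 1 without either w1118 array. Among the other 11 genes of that list, Hsp60D, a relative of Hsp60A, and the prefoldin subunit gene mgr rose in X1 against w1118. CG11267, which has the synonym Hsp10 and so is named for the partner of the mitochondrial chaperonin, fell (-0.67 ± 0.114 SE; limma adjusted p = 0.0353). The list's median in X1 against w1118 was 0.49, with 8 higher and 1 lower of 19, against 7.50% higher and 10.6% lower over all probe sets.

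In the Hsp90 list 5 of 14 genes rose and 1 fell in X1 against w1118, with a median of 0.82. Of all probe sets 7.50% were called higher and 10.6% lower. The share called higher was 4.11% without X1 replicate 2, 3.93% without X1 replicate 3 and 3.32% with the 5 GAL4 arrays as 1 group. The count of rises was 3 without w1118 replicate 1, X1 replicate 2 or X1 replicate 3, and 1 with the 5 GAL4 arrays as 1 group. Fkbp59, a TPR immunophilin, measured 1281, 1182 and 1134 in X1, 543 and 452 in the 2-copy and 1-copy arrays of line 89, and 432 and 383 in w1118, a log2 difference of 1.56 ± 0.0915 (SE; limma adjusted p = 0.00388). Sgt1, an Hsp90 adaptor, measured 1926, 2104 and 2498 in X1, 1868 and 247 in line 89, and 502 and 502 in w1118, a difference of 2.11 ± 0.133 (limma adjusted p = 0.00442). Like Hsc70-5, its line 89 array with 2 copies was near X1 and the array with 1 copy was the lowest of the 7.

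The cochaperone p23 measured 4848, 4917 and 4749 in X1, 4107 and 6181 in line 89, and 2233 and 1828 in w1118. It was called higher in both lines, by 1.26 ± 0.105 in X1 (limma adjusted p = 0.00759) and 1.32 in line 89 (limma adjusted p = 0.0468). The line 89 call of p23 ended with floors of 1 and 64, quantile normalization and median centring. It also ended whichever X1 array was left out. CG1416, with the synonym Aha1, and unc-45, a myosin chaperone that binds Hsp90, were the other genes that rose. Dpit47, a TPR protein known to bind Hsp90, fell in X1 (-1.73 ± 0.149 SE; limma adjusted p = 0.00834) and in line 89 (-0.92; limma adjusted p = 0.0487). Its line 89 call ended with a floor of 1, with hybridization control scaling, and without X1 replicate 2 or X1 replicate 3. The Hsp90 gene Hsp83 was not analysed here.

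The Hsp70 list, largely J-domain proteins, showed little common movement, with 3 higher and 1 lower of 21 and a median of -0.04. Of all probe sets 7.50% were called higher and 10.6% lower. Among those with a mean of at least 100 in X1 or w1118, 17.8% were called higher. CG5001, CG8531 and DnaJ-H rose by 1.28, 1.01 and 1.19 (limma adjusted p = 0.0216, 0.0325 and 0.0428). CG5001 was also called higher in line 89 (1.69; limma adjusted p = 0.0146), a call that ended with a floor of 1 and without X1 replicate 3. Hsc20, the J-domain protein of iron-sulfur cluster assembly, was under 16 in all X1 arrays, 26.4 and 23.6 in line 89, and 86.1 and 64.3 in w1118. It was called lower in X1 (limma adjusted p = 0.00472) and in line 89 (limma adjusted p = 0.0135). The line 89 call of Hsc20 ended with floors of 1 and 64 and without X1 replicate 2 or X1 replicate 3. The X1 values of Hsc20 all entered the tests as 16, with no spread between them.

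The ER list had 2 higher and 2 lower of 17, with a median of -0.16. Sec61beta, a subunit of the translocon, rose by 1.96 ± 0.128 (SE; limma adjusted p = 0.00473) and PEK, the ER stress kinase, by 0.64 ± 0.0513 (limma adjusted p = 0.00717). The genes prtp, an ER thioredoxin-domain protein, and Uggt, the folding sensor that reglucosylates glycoproteins, fell, by 1.35 and 0.34 on the log2 scale (limma adjusted p = 0.0111 and 0.0391). The Uggt call held in 1 of 15 alternatives and ended with quantile normalization and median centring, among others, and its difference was 0.26 with hybridization control scaling, the opposite sign. Over all probe sets 7.50% were called higher and 10.6% lower.

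Leaving out any 1 of the 5 arrays kept the X1 calls of p23, Fkbp59, Sgt1, CCT3, CCT4, Sec61beta, PEK and Hsc20. Of these, Sgt1 and PEK lost their calls in the 7-array fit, CCT4 and PEK with a floor of 1, Hsc20 with a floor of 64, and all but p23 and Hsc20 with the 5 GAL4 arrays as 1 group. That of CCT1 ended without w1118 replicate 1, that of mgr without X1 replicate 3, and those of Dpit47 and prtp without either w1118 array or X1 replicate 3. Those of CG5001, DnaJ-H, CG1416 and Hsp60D ended without any array other than X1 replicate 1, and those of CG8531 and Uggt ended whichever of the 5 arrays was left out. The call of CG11267 ended without either w1118 array or X1 replicate 2, and that of unc-45 without w1118 replicate 1 or any X1 array.

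**Figure D3:**
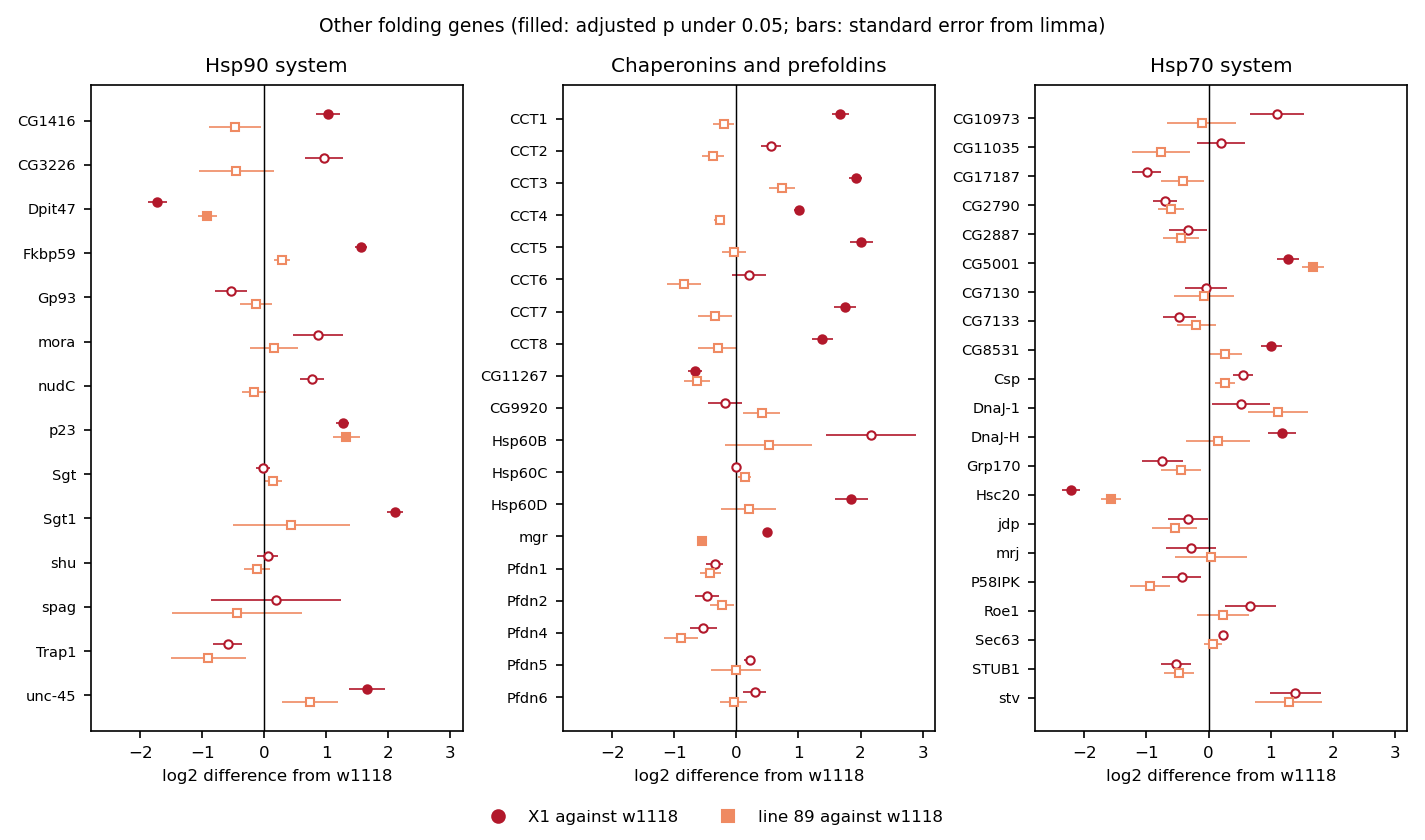
Log2 difference from w1118 of the other Hsp90-system, chaperonin and prefoldin, and Hsp70-system genes in X1 (circles) and line 89 (squares), with bars for the standard error from limma and filled symbols for an adjusted p under 0.05. In the middle panel 6 of the 8 CCT subunits are filled for X1, to the right of 0, and none for line 89.

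The heat-inducible genes were uneven, with a wide gap between the w1118 arrays for the brighter Hsp70 probe sets and Hsp68 and a narrow one for others. The Hsp70B probe set 1626821_s_at, which reads Hsp70Ba, Hsp70Bb, Hsp70Bbb and Hsp70Bc together, measured 5019, 2524 and 2192 in X1, 10184 and 4229.7 in the 2-copy and 1-copy arrays of line 89, and 462 and 2822 in w1118. The line 89 array with 2 copies was the highest, and w1118 replicate 2 was 6.10 times replicate 1 and inside the X1 range. The X1 difference was 2.71 without w1118 replicate 2 (limma adjusted p = 0.155) and 0.10 without w1118 replicate 1. Neither line differed from w1118 after adjustment (1.41 in X1, limma adjusted p = 0.407; 2.52 in line 89, limma adjusted p = 0.298).

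The overlapping Hsp70B probe set 1632841_x_at and the Hsp70Aa and Hsp70Ab probe set 1639571_s_at showed the same split of w1118, with replicate 2 at 5.19 and 3.91 times replicate 1, and were not called (limma adjusted p = 0.438 and 0.405 in X1). Of the 2 remaining Hsp70 probe sets, 1629827_s_at was dim and not called (limma adjusted p = 0.527), and 1626832_at, which is shared with CG31343 and was under 16 in all X1 arrays, was called lower in X1 (limma adjusted p = 0.0182), but not without X1 replicate 2 or 3, and in line 89 (limma adjusted p = 0.0302). Hsp68, another heat-inducible relative, read 7829, 7273 and 6156 in X1, 8950 and 5443 in line 89, and 1449 and 5112 in w1118 (limma adjusted p = 0.235 in X1). The small heat shock protein gene Hsp27 read 7345, 6419 and 6093 in X1, 6812 and 4827 in line 89, and 4889 and 5111 in w1118 (limma adjusted p = 0.082 in X1). For Hsp68, Hsp26, Hsp27 and the related l(2)efl every X1 array lay above both w1118 arrays, as for the members called higher. Of the 5 genes of the heat-inducible list with a probe set of their own, which include the regulator gene Hsf, 0 were called in any of the 3 comparisons. Hsf was lower in X1 by value, at 1085, 2838 and 2505 against 2938 and 3375 in w1118. Without w1118 replicate 2, Hsp68 (2.28, limma adjusted p = 0.0282) and Hsp26 (0.74, limma adjusted p = 0.0189) were called higher in X1 against w1118.

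For the 5 cytosolic members both w1118 arrays were close, with Stip1 in w1118 replicate 2 at 1.15 and Hsc70-4 at 1.20 times replicate 1. They were as close for Hsp27 (1.04), l(2)efl (1.08) and Hsf (1.15), the gene of the heat shock transcription factor. The array with the highest Hsp70B value, line 89 with 2 copies, had Hsc70-4, Droj2 and Stip1 values below every X1 array. X1 replicate 1, which had the highest Hsp70B value within X1 (5019), was the highest of the 7 arrays for Hsc70-5 (1960) and, narrowly, for Droj2 (2124, against 2109 in X1 replicate 2). The same array was the lowest within X1 for Stip1 (4856), Hsp110 (598) and Hsc70-3 (5884), and the highest within X1 for Hsp60A (274). For Hsc70-4 and Cdc37 it lay between the other X1 arrays. Whether the constitutive and the heat-inducible genes moved together was not tested.

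**Figure D4:**
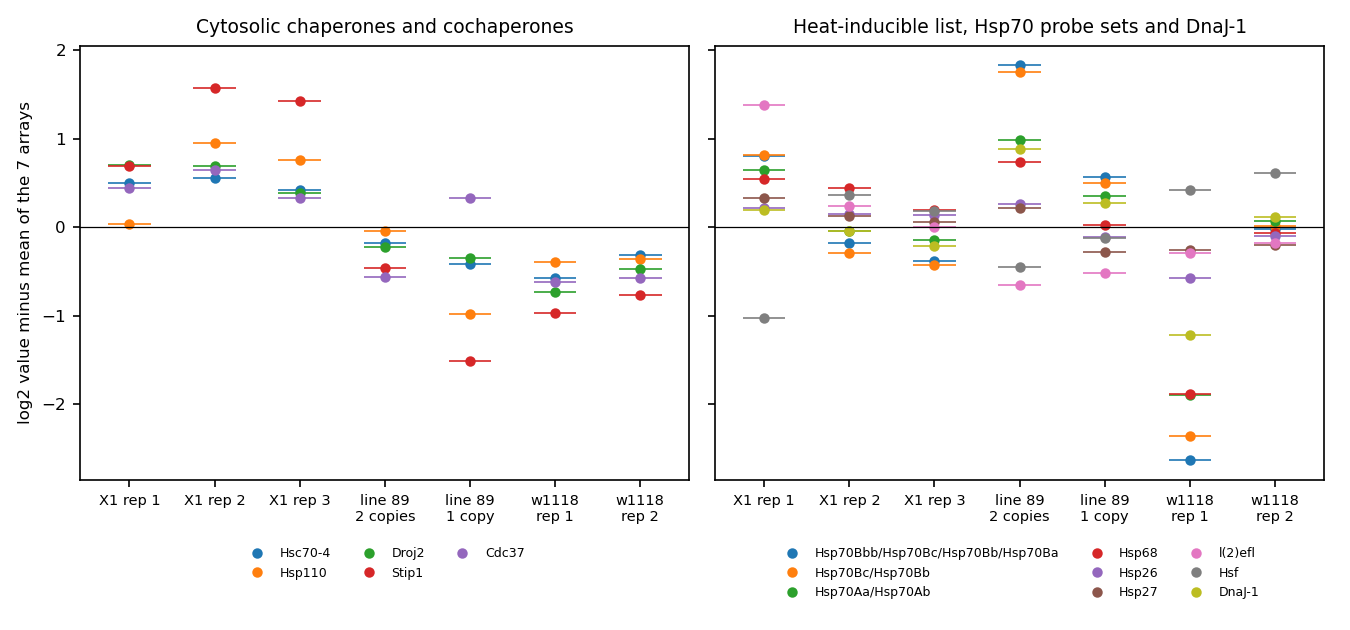
Log2 intensity of each array (values under 16 raised to 16) minus the mean of the 7 arrays, for 5 cytosolic chaperone and cochaperone genes (left) and for the 3 brighter Hsp70 probe sets, the 5 genes of the heat-inducible list, the regulator gene Hsf among them, and DnaJ-1 (right), 1 mark per gene and array. On the left both w1118 arrays lie close together for each gene, while on the right w1118 replicate 1 lies far below replicate 2 for the Hsp70 probe sets, Hsp68 and DnaJ-1 but not for Hsp27, l(2)efl or Hsf, and line 89 with 2 copies is highest for the Hsp70 probe sets, Hsp68, Hsp26 and DnaJ-1.

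The genes whose 7 values followed each called member most closely were taken by Pearson r on the log2 scale among 4650 probe sets with 1 symbol, a group mean of at least 100 and a range of at least 1. With 3 of 7 arrays from one line, such an r mostly orders X1 against the rest. For Hsc70-4 these were ClC-c (0.985), CG9705 (0.985) and Mpi (0.985), and for Stip1 CCT8 (0.992), viaf (0.989) and Myd88 (0.986). For Cdc37 they were Ir67b (0.988), CG13000 (0.984) and sona (0.982), and for Droj2 CG1620 (0.990), CG2926 (0.989) and Ciz1 (0.982). Among the members themselves Hsc70-4 and Droj2 had 0.985 and Hsp110 and Stip1 0.960.

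The nearest measured genes on either side of each member, 20 in all, were looked up after the members' values were seen. In X1 against w1118 4 of the 20 were called higher and 3 lower, where 7.50% of all probe sets were called higher and 10.6% lower, and none of those beside Hsc70-4, Cdc37 or Droj2 was called. Beside Stip1, the splicing factor gene U2af38 averaged 787 in X1, was 473 and 297 in the 2-copy and 1-copy arrays of line 89, and averaged 103 in w1118. Its log2 difference was 2.89 ± 0.288 (SE; limma adjusted p = 0.0113) in X1 and 1.86 in line 89 (limma adjusted p = 0.063). On the other side of Stip1, the phospholipase gene Plc21C fell by 1.58 on the log2 scale in X1 (limma adjusted p = 0.0362). In line 89 its difference was -1.07 (limma adjusted p = 0.169). Whether these differences are linked to that of Stip1 was not tested.

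**Figure D5:**
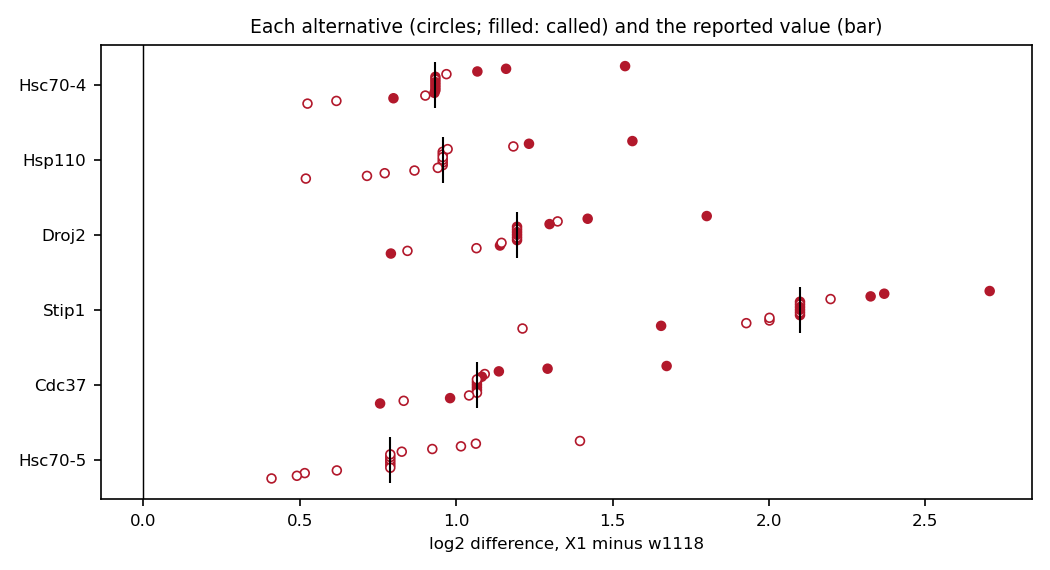
Log2 difference in X1 against w1118 (X1 minus w1118) for 6 members, with a circle for each alternative setting, filled where the gene was called, and a bar at the reported value. All circles lie to the right of 0, and Stip1 spans 1.21 to 2.71.

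When the 5 GAL4 arrays were taken as 1 group against w1118, none of the 4 genes was called, with differences of 0.62 for Hsc70-4, 1.21 for Stip1, 0.83 for Cdc37 and 0.84 for Droj2. Scaling to the hybridization controls moved the median of all probe sets by 0.29, to 0.21. Relative to that median, Hsc70-4 was higher by 1.33, Stip1 by 2.50, Cdc37 by 1.47, Droj2 by 1.59 and Hsp110 by 1.36 in X1 against w1118. The plot of the alternative settings shows that the size of each difference changed by setting and its sign did not for these 5 genes or Hsc70-5.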

How the data were processed

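Total RNA of 7 salivary gland samples was labelled by the one-cycle protocol and hybridized to Affymetrix fly arrays, per the labels. The deposited values are dChip intensities on a linear scale, and per the series text the authors normalized all arrays to a shared baseline array (median intensity 145). Which version and model of dChip they used was not stated in the labels. The table held 18952 probe sets, of which 183 controls were left out, and 0 columns came from samples outside the series. A floor of 16 was set before taking log2. The test of X1 against w1118 used 5 arrays and two-sided limma 3.58.1 (lmFit, then eBayes) under R 4.3.3. The other 2 comparisons came from one fit of 7 arrays in 3 groups, in which both line 89 arrays formed 1 group, so that copy number counted as spread. Calls needed a Benjamini-Hochberg adjusted p under 0.05 over 18769 probe sets. The fit was tested on simulated data. The number of arrays limits the precision.

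Genes were named from the platform annotation, where 13647 probe sets had 1 symbol and 402 several. Of those with 1 symbol, 13544 matched the Release 6 gene table by Entrez gene, and 0 symbols changed. The 10 members were named in full. Each other list gave up to 3 called genes in each direction in X1 against w1118 by adjusted p, plus every Hsp70 probe set. Genes named beyond that were chosen after their values were seen. Members and lists were chosen with earlier results of these data known. Groups came from the sample titles, and p-values measure the spread between these arrays. A group whose values were all raised to the floor adds no spread. Alternatives were other floors (1 and 64), quantile normalization, median centring, hybridization control scaling, leaving out probe sets under 100 in every group mean, a trended and robust variance, an adjusted p under 0.01, each array left out, the replicate number as a block, all GAL4 arrays as 1 group, and the 7-array fit. Planned descriptions of promoter motifs and protein identity were not run, and no sequences are shown.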

Additional observations from a re-analysis of the deposited data

Results flagged for a closer look

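In the direct limma test of X1 against line 89, 1.98% of all 18769 probe sets were called, and none of the 10 chaperone and cochaperone genes was. By value, the 8 of these genes with an intensity of at least 100 on some array were all higher in X1. Their median difference was 0.77, against -0.15 over the 6927 probe sets with a group mean of at least 100. Some folding and marker genes of the other lists were called. Higher in X1 were the chaperonin subunits CCT1 (log2 difference 1.88, adjusted p = 0.0232), CCT4 (1.27, adjusted p = 0.013), CCT5 (2.05, adjusted p = 0.0269) and CCT7 (2.09, adjusted p = 0.0376), the prefoldin subunit mgr (1.06, adjusted p = 0.013) and the Hsp90 cochaperone Fkbp59 (1.27, adjusted p = 0.0315). Lower in X1 was the hemocyte marker Ppn (-0.82, adjusted p = 0.0305). For mgr the 2 lines went opposite ways, with 0.49 in X1 against w1118 (limma adjusted p = 0.012) and -0.56 in line 89 against w1118 (limma adjusted p = 0.0267). The line 89 difference of mgr was 0.020 with hybridization control scaling. Its line 89 call also ended with a floor of 1 and without X1 replicate 2 or X1 replicate 3. The X1 call of mgr ended with a floor of 1, quantile normalization, dim probe sets left out and an adjusted p under 0.01. It ended as well without X1 replicate 3 and with the 5 GAL4 arrays as 1 group. X1 and line 89 had 3 and 2 arrays, and without X1 replicate 2 or without X1 replicate 3 limma called 0 of all probe sets in this comparison, with 2922 and 3120 at an unadjusted p under 0.05. CCT4 was called in 11 of 15 alternatives without the replicate block, CCT1, CCT5 and mgr in 9 each, Fkbp59 and CCT7 in 6 each and Ppn in 4, and the sign of each held in all 15.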

How the results depend on the processing

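Over the 12 probe sets limma called 4 higher and 1 lower in X1 against w1118. The count higher was 2 with a floor of 1 and with a floor of 64, where 6.45 and 3.84% of all probe sets were called higher, and 0 with an adjusted p under 0.01 (3.21% of all) and with the 5 GAL4 arrays as 1 group (3.32%). Leaving out each array in turn gave 1 to 5, with 1 without w1118 replicate 1, w1118 replicate 2 or X1 replicate 2, 2 without X1 replicate 3, and 5, with Hsp110 added, without X1 replicate 1. The share of all probe sets called higher moved along with this, at 3.69, 3.89, 4.11, 3.93 and 10.3% without these 5 arrays in the same order. The count lower was 0 with a floor of 1, a floor of 64, hybridization control scaling, dim probe sets left out, an adjusted p under 0.01 and the 5 GAL4 arrays as 1 group, and 0 to 1 with each array left out. That probe set, 1639380_a_at, is itself dim, so it is not among the probe sets tested when dim ones are left out, and with a floor of 64 all its values are at the floor. In line 89 against w1118, quantile normalization called 1 lower. In X1 against line 89, median centring and leaving out dim probe sets called 1 higher each, and leaving out each array gave 0 to 1. Hsc70-4, Stip1, Cdc37, Droj2, Hsp110 and Hsc70-5 kept their sign in X1 against w1118 in all alternatives.

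Among the 12 probe sets, changes of sign were limited to differences that were not called. Of the called list genes, hybridization control scaling turned Uggt in X1 against w1118 (0.26) and mgr in line 89 against w1118 (0.020). With hybridization control scaling the log2 differences in X1 against w1118 were 0.092 for Hsc70-1 1627963_s_at, 0.44 for 1636956_at and 0.14 for Hsp60A. In line 89 against w1118 the same scaling gave 0.40 for 1627963_s_at, 0.17 for 1636956_at, 0.35 for 1639380_a_at, 0.45 for Hsp110, 0.085 for Hsp60A and 0.46 for Stip1. Quantile normalization gave 0.13 for 1636956_at and -0.34 for Hsc70-3 in X1 against w1118, and -0.16 for Hsc70-4, -0.28 for Hsc70-5 and -0.014 for Droj2 in line 89 against w1118. Median centring gave 0.058 for 1636956_at, and the 5 GAL4 arrays as 1 group -0.25 for Hsc70-3. In X1 against line 89 a floor of 1 gave -0.25 for Hsc70-2. The cause of these changes was not tested.

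With each array left out in turn, signs changed for 1627963_s_at (-0.77 to 0.035), 1636956_at (-0.45 to 0.32) and Hsc70-3 (-0.21 to 0.22) in X1 against w1118. In line 89 against w1118 they changed for 1636956_at (-0.96 to 0.34), Hsc70-5 (-0.72 to 0.81), Hsp110 (-0.60 to 0.33) and Stip1 (-0.64 to 0.40). In X1 against line 89 they changed for 1627963_s_at (-0.59 to 0.22), 1636956_at (-0.44 to 0.86), Hsc70-2 (-0.16 to 0.37), Hsc70-5 (-0.021 to 1.51) and Hsp60A (-0.14 to 0.20). Where line 89 was left with 1 array, that array was assumed to vary like the other groups.

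Nothing in the labels pairs the replicate numbers, and deviations of same-numbered X1 and w1118 arrays correlated at -0.05 and -0.01. With 2 w1118 arrays the deviations of one mirror those of the other, so these values cannot show whether the arrays were paired. A fit with a block for the replicate number called 0 members higher and 0 lower in X1 against w1118, and 0 of 18769 probe sets, with 4491 at an unadjusted p under 0.05. The block gave 0.97 for Hsc70-4, 2.00 for Stip1, 1.14 for Cdc37 and 1.30 for Droj2. It changed the sign in line 89 against w1118 for 1627963_s_at (0.28), Hsp110 (0.10) and Stip1 (0.15), and in X1 against line 89 for 1636956_at (-0.24) and Hsc70-2 (-0.0017).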
